A study of Mus musculus with 12 samples.

Results

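Fibroblasts of the meninges and of the perivascular spaces lay down the collagens, proteoglycans and glycoproteins of the brain's outer coverings. A set of 9 genes named after these cells is described here in the hippocampus of WT and cKO mice. They are Col1a1 and Col1a2 (the 2 chains of collagen I), Col6a1 (a chain of collagen VI), Dcn, Lum, Fmod and Ogn (small leucine-rich proteoglycans), Fbln1 (fibulin 1) and Slc22a6 (the organic anion transporter OAT1). They were chosen by name, as 9 of the 33250 gene symbols in the deposited table, and all 9 were among the 19325 genes that passed the filter on low counts. Bulk hippocampus of 12 male mice, called adult in the series title, was sequenced as polyA RNA, from 6 wild-type animals (WT) and 6 with a conditional knockout (cKO). In the cKO animals, Cre acting in Emx1-positive cells removes the miR379-410 cluster, a large group of microRNA genes of an imprinted region. Emx1 is a homeobox gene of the cortical and hippocampal excitatory lineage. The sources used here do not give the age in weeks, the bases deleted, or whether WT animals carried Cre or a floxed allele. Since this is bulk tissue, more cells of a type and more RNA per cell cannot be told apart. Which cells the RNA of each member came from was not tested. Across the 12 libraries Col6a1 and Dcn correlated only weakly with the other members.

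Collagen I forms the fibrils of the dura and leptomeninges, and its alpha 1 and alpha 2 chains wind into a triple helix. The small leucine-rich proteoglycans bind collagen fibrils and set their width and spacing. Collagen VI builds beaded microfilaments around cells, and fibulin 1 links elastic fibres and basement membranes. OAT1 carries organic anions and is known from the kidney and from the meninges. A hippocampal dissection holds few such cells, along the hippocampal fissure, the larger vessels and the stroma of any choroid plexus that comes with it.

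Library totals lay between 42360624 and 51095816 counts, and the members were read at 102 (Lum) to 4243 (Col6a1) counts per library. Levels are given in CPM, counts scaled to a common library size with TMM factors. Differences between libraries in Ttr and in Emx1 touch the results. Ttr, a choroid plexus transcript, was at 28.3 CPM in cKO 4, 49.8 CPM in WT 2 and 498 CPM in WT 3, and between 2222 and 7657 CPM in the other libraries. Emx1, the gene whose expression domain defines the deletion, was at 8.38 to 9.60 CPM in WT and at 5.91 to 6.84 CPM in cKO 2 to cKO 6, but at 9.14 CPM in the library labelled cKO 1, inside the WT range. Emx1 itself was not reported as deleted, so this neither shows nor refutes the genotype of that animal. Mirg, a non-coding RNA annotated over the cluster, had a log2 fold change of 0.15 ± 0.12 (SE, edgeR adjusted p = 0.738), and mature microRNAs were not measured. Results are therefore given with and without the library labelled cKO 1, and with and without the libraries low in Ttr.

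No member passed the test between genotypes at an adjusted p of 0.05, while all 9 had a higher fitted level in cKO. Across all genes tested, 53.4% had a log2 fold change above 0, and 0.0103% were called by edgeR's quasi-likelihood test with Benjamini-Hochberg adjustment, both of those called genes being higher in cKO. The median log2 fold change was 0.35 over the 9 members and 0.01 over all genes tested. The direction of the members was known when they were chosen, so the count of 9 is a description. At an unadjusted p under 0.05, 2 members (Col6a1 and Fbln1) were higher and 0 lower, against 3.2% of all genes higher and 9.54% in either direction at that level. No member had every cKO library above every WT library, a pattern that 0.181% of genes showed. Neither DESeq2 nor limma-voom called a member; they had 3 and 2 members at an unadjusted p under 0.05.

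**Figure D1:**
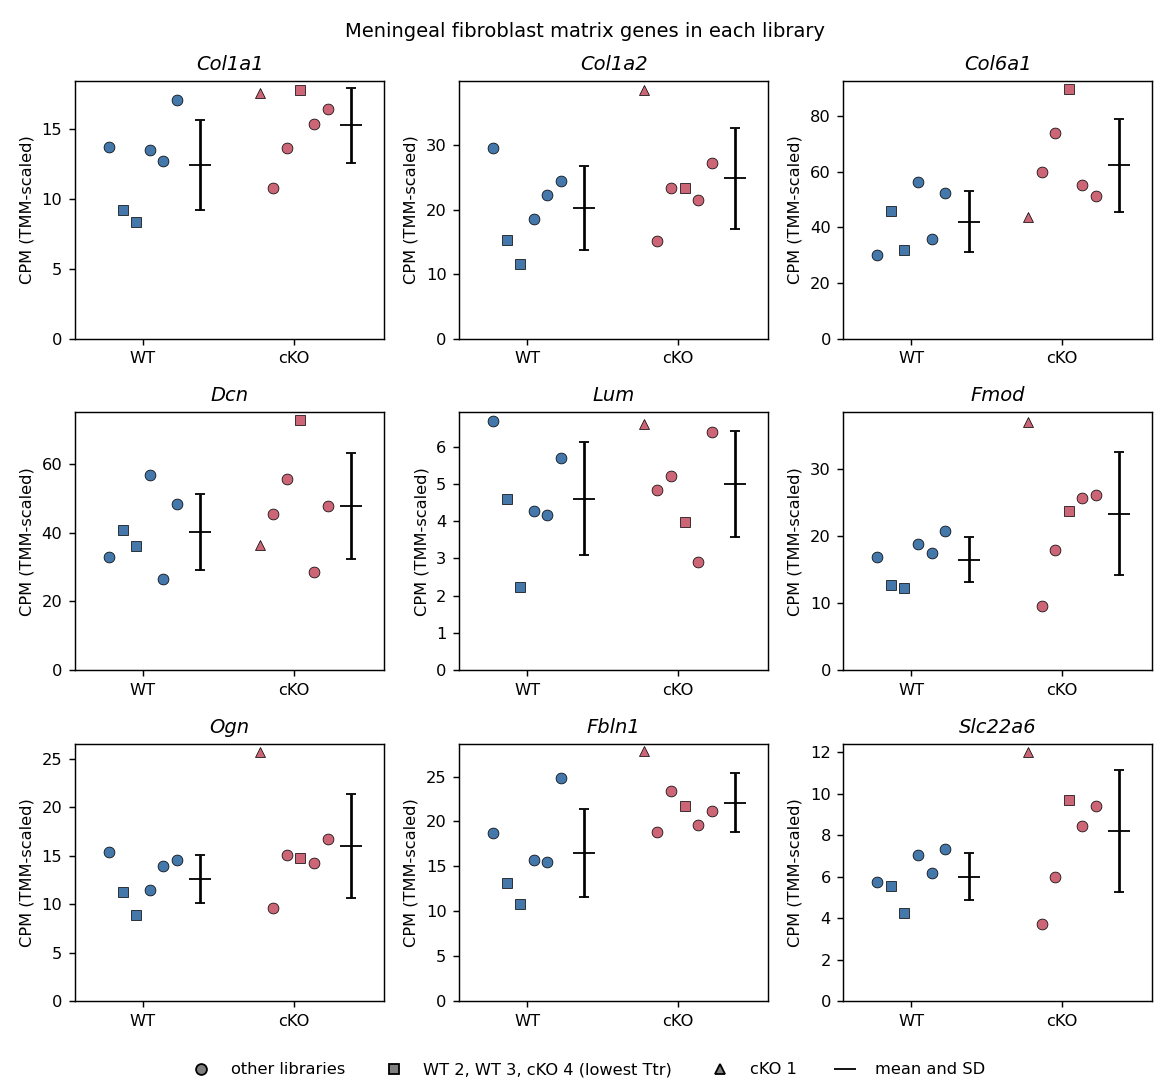
Level of each of the 9 genes in every library, in TMM-scaled CPM on a linear axis from 0, 1 panel per gene, with points for the 6 WT and 6 cKO libraries (squares for those low in Ttr, a triangle for the library labelled cKO 1) and each group's mean and SD beside them. WT and cKO points overlap in every panel, the library labelled cKO 1 is the highest point for 5 genes, and WT 3 is the lowest for 5.

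Col6a1, the collagen VI alpha 1 chain, had the smallest p of the 9. Its level in WT ran from 30.0 (WT 1) over a median of 40.8 to 56.4 CPM (WT 4), and in cKO from 43.9 (the library labelled cKO 1) over a median of 57.7 to 89.6 CPM (cKO 4). All 6 cKO libraries lay above the WT median and 3 lay above every WT library, so the groups overlapped. The WT mean was 42.1 ± 11.1 CPM against a cKO mean of 62.4 ± 16.7 CPM (SD, n = 6 each). The log2 fold change was 0.57 ± 0.19 (SE). Its unadjusted p was 0.0105 and its edgeR adjusted p 0.375, and it ranked 537 by p among the genes tested. With the library labelled cKO 1 left out, Col6a1 was at 0.64 ± 0.19 (SE, edgeR adjusted p = 0.161). Without WT 2, WT 3 and cKO 4, the libraries low in Ttr, it was 0.38 ± 0.19 (SE, edgeR adjusted p = 0.696).

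The Col6a1 gene lies at chr10:76708792-76726168 on the minus strand of GRCm38. Since the study deletes microRNAs, the 3′ UTR sites that pair with their seeds (bases 2 to 8) are shown, here the 5 in Col6a1, which had 6.52 sites per kb of 3′ UTR. That is more than in 87.1% of the 15190 genes with an annotated 3′ UTR of at least 50 bases, and it rests on 5 sites in 767 bases. For the other members this share ran from 16.8% (Fmod) to 60.4% (Fbln1). In each pair of lines below, the microRNA has its seed in capitals and the site has the matching bases in capitals, both 5′ to 3′.
mmu-miR-323-3p: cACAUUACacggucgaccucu
Col6a1, match at chr10:76709396-76709402: tctttgctttgtGTAATGTccc
mmu-miR-300-5p: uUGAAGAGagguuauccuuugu
Col6a1, match at chr10:76709096-76709102: aggagacccctcCTCTTCAtca
mmu-miR-1193-3p: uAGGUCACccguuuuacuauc
Col6a1, match at chr10:76709075-76709081: aggtgcttgtcaGTGACCTaca
mmu-miR-1197-3p: uAGGACACauggucuacuucu
Col6a1, match at chr10:76708948-76708954: gttcacactcaaGTGTCCTgtc
mmu-miR-299a-3p: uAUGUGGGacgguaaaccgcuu
Col6a1, match at chr10:76708847-76708853: cttcatggctccCCCACATtcc
These sequences come from the GENCODE annotation of GRCm38 for the sites and from RefSeq (GRCm38.p6) for the microRNAs. Over the 69 mature microRNAs of 37 genes from Mir379 to Mir410, with 63 distinct seeds, the 9 members held 40 sites in 10826 bases of 3′ UTR, or 3.69 per kb. All genes with a 3′ UTR together held 4.16 sites per kb, and 88.4% of them held at least 1. A match is a description of letters, and no site was tested for use.

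The collagen I chains had nearly the same log2 fold change with all 12 libraries. Without the library labelled cKO 1 the values lay further apart, but by less than the SE of either. Col1a2 (chr6:4504814-4541544, plus strand) ran in WT from 11.6 (WT 3) over a median of 20.3 to 29.5 CPM (WT 1), and in cKO from 15.1 (cKO 2) over a median of 23.3 to 38.5 CPM (the library labelled cKO 1). Only that 1 cKO library lay above every WT library, and its log2 fold change was 0.29 ± 0.23 (SE, edgeR adjusted p = 0.741). Without it Col1a2 was at 0.12 ± 0.21 and Col1a1 at 0.24 ± 0.18 (SE). Col1a2 was at 0.17 without WT 3 and at 0.43 without WT 1, the highest value with 1 animal left out. Col1a1 (chr11:94936224-94953042, plus strand) ran in WT from 8.37 (WT 3) over a median of 13.1 to 17.0 CPM (WT 6), and in cKO from 10.8 (cKO 2) over a median of 15.9 to 17.8 CPM (cKO 4). The libraries labelled cKO 1 and cKO 4 were its highest, and the log2 fold change was 0.30 ± 0.17 (SE, edgeR adjusted p = 0.608). Without WT 2, WT 3 and cKO 4 the values were 0.09 for Col1a2 and 0.05 for Col1a1, with 4 WT and 5 cKO libraries.

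The 2 transcripts of collagen I share a seed site, for mmu-miR-377-3p, which is shown because the chains are assembled into 1 protein.
mmu-miR-377-3p: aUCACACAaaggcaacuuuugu
Col1a1, match at chr11:94952638-94952644: tggatagggactTGTGTGAatt
Col1a2, match at chr6:4541270-4541276: tgatgtgcattgTGTGTGAttt
The ratio of Col1a1 to Col1a2 counts within a library does not depend on scaling between libraries. It ran from 0.457 to 0.765 over the 12 libraries, and the log2 ratio averaged -0.68 ± 0.25 for WT against -0.67 ± 0.27 for cKO (SD, n = 6 each). The difference of 0.02 was smaller than the spread between animals (exact permutation test over 924 assignments, two-sided, p = 0.857, adjusted over 2 ratios 0.857). The smallest p this design allows is 0.00216.

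Among the small leucine-rich proteoglycans, Fmod (fibromodulin) had the highest log2 fold change and Lum (lumican) the lowest with all 12 libraries. Fmod (chr1:134037254-134048277, plus strand) ran in WT from 12.2 (WT 3) over a median of 17.1 to 20.6 CPM (WT 6), and in cKO from 9.48 (cKO 2) over a median of 24.6 to 37.01 CPM (the library labelled cKO 1). In cKO, 4 libraries lay above every WT library while cKO 2 lay below every one. The means were 16.4 ± 3.36 and 23.3 ± 9.18 CPM (SD, n = 6 each), and the log2 fold change was 0.50 ± 0.25 (SE, edgeR adjusted p = 0.552). Without the library labelled cKO 1 it was 0.31 ± 0.23 (SE), the same as for Dcn at 0.31 ± 0.23 (SE), and without WT 2, WT 3 and cKO 4 it was 0.33.

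Ogn (osteoglycin, also called mimecan; chr13:49608046-49624501, plus strand) ran in WT from 8.88 (WT 3) over a median of 12.7 to 15.3 CPM (WT 1). In cKO it ran from 9.56 (cKO 2) over a median of 14.9 to 25.7 CPM (the library labelled cKO 1). That library stood well above the other 11, of which the next held 16.7 CPM (cKO 6). The log2 fold change of Ogn was 0.35 ± 0.20 (SE, edgeR adjusted p = 0.612), and 0.15 ± 0.15 (SE) without that library. Ogn held 3 sites for 1 microRNA of the cluster, mmu-miR-539-5p, as did Fbln1 for mmu-miR-329-3p. They are shown as the repeated sites among the members.
mmu-miR-539-5p: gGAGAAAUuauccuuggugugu
Ogn, match at chr13:49623473-49623479: ctacttcactgcATTTCTCact
Ogn, match at chr13:49623659-49623665: aaaatcctacccATTTCTCaaa
Ogn, match at chr13:49623855-49623861: cccaagagcaccATTTCTCaat
mmu-miR-329-3p: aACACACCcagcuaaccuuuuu
Fbln1, match at chr15:85285904-85285910: atgggggtggctGGTGTGTccc
Fbln1, match at chr15:85285935-85285941: gtagagatggctGGTGTGTccc
Fbln1, match at chr15:85285966-85285972: gtagaagtgtctGGTGTGTttc

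Dcn (decorin) and Lum lie on the plus strand of chromosome 10, Dcn at chr10:97479609-97518143 and Lum at chr10:97565128-97572703. There were 46984 bases and no tested gene between them. Dcn ran in WT from 26.5 (WT 5) over a median of 38.5 to 57.0 CPM (WT 4), and in cKO from 28.6 (cKO 5) over a median of 46.7 to 72.9 CPM (cKO 4). Lum ran in WT from 2.23 (WT 3) over a median of 4.44 to 6.71 CPM (WT 1), and in cKO from 2.90 (cKO 5) over a median of 5.03 to 6.63 CPM (the library labelled cKO 1). The groups overlapped for both, and for Dcn cKO 4 lay above every WT library. The log2 fold changes were 0.25 ± 0.22 for Dcn (SE, edgeR adjusted p = 0.773) and 0.11 ± 0.24 for Lum (SE, edgeR adjusted p = 0.918). With 1 animal left out, Dcn ran from 0.09 without cKO 4 to 0.37 without WT 4, and it was at 0.15 without WT 5. Dcn was at 0.06 without WT 2, WT 3 and cKO 4. Lum was the member whose direction turned, from -0.03 without WT 3 to 0.25 without WT 1, and it was at 0.01 without the library labelled cKO 1. Although neighbours, the 2 genes had a Pearson r of 0.18 and a Spearman rho of 0.09 over the 12 animals (permutation p = 0.576, adjusted over 36 pairs 0.715).

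Fbln1 (chr15:85205949-85286535, plus strand) was the member with the smallest spread in cKO, a coefficient of variation of 14.7% against 29.6% in WT. It ran in WT from 10.8 (WT 3) over a median of 15.6 to 24.9 CPM (WT 6), and in cKO from 18.9 (cKO 2) over a median of 21.5 to 27.8 CPM (the library labelled cKO 1). All 6 cKO libraries lay above the WT median, yet only 1 lay above WT 6. The means were 16.5 ± 4.88 and 22.1 ± 3.24 CPM (SD, n = 6 each), and the log2 fold change was 0.42 ± 0.17 (SE), with an unadjusted p of 0.0231 and an edgeR adjusted p of 0.451. It was 0.34 ± 0.17 (SE) without the library labelled cKO 1 and 0.25 without WT 2, WT 3 and cKO 4.

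Slc22a6 (chr19:8618039-8628299, plus strand), the transporter, ran in WT from 4.24 (WT 3) over a median of 5.95 to 7.32 CPM (WT 6), and in cKO from 3.73 (cKO 2) over a median of 8.95 to 12.02 CPM (the library labelled cKO 1). As for Fmod, 4 cKO libraries lay above every WT library and cKO 2 lay below every one. The means were 6.01 ± 1.12 and 8.22 ± 2.94 CPM (SD, n = 6 each), and the log2 fold change was 0.45 ± 0.23 (SE, edgeR adjusted p = 0.567). It was 0.30 ± 0.22 (SE) without the library labelled cKO 1 and 0.27 without WT 2, WT 3 and cKO 4. The log2 ratio of Slc22a6 to Col1a2 counts averaged -1.71 ± 0.37 for WT against -1.63 ± 0.31 for cKO (SD, n = 6 each; exact permutation test, two-sided, p = 0.719, adjusted over 2 ratios 0.857).

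**Figure D2:**
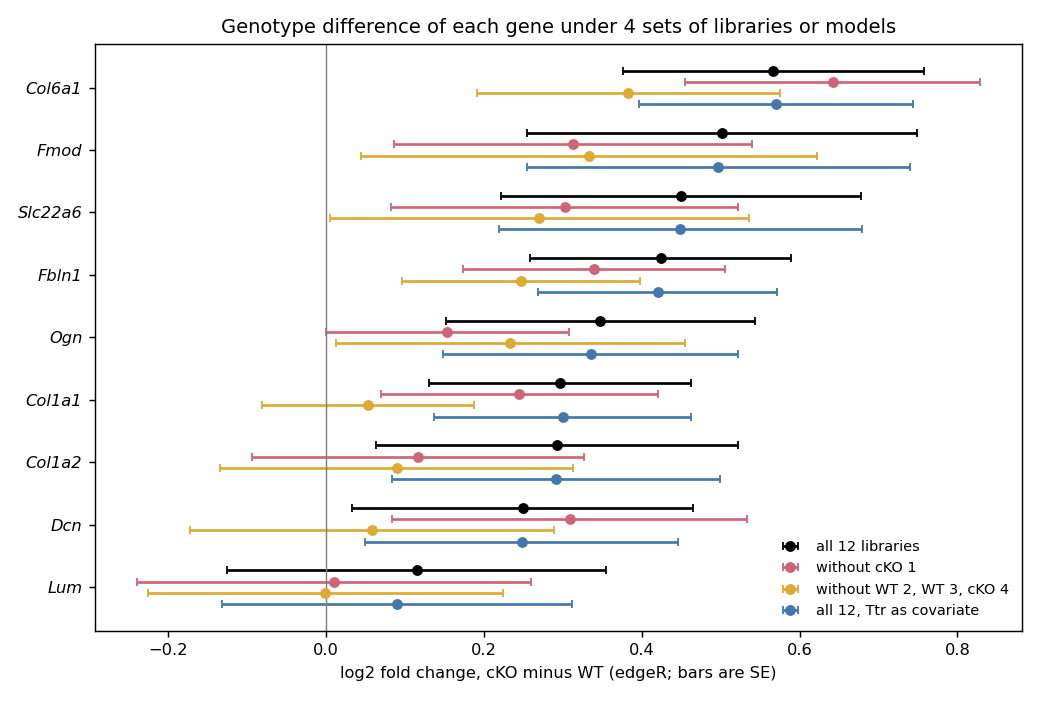
Log2 fold change (cKO minus WT) of each of the 9 genes with its SE, with all 12 libraries, with Ttr as a covariate, without WT 2, WT 3 and cKO 4, and lastly without the library labelled cKO 1. Col6a1 has the highest value in each fit, from 0.38 to 0.64, and Lum the lowest, from -0.0008 to 0.11.

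Leaving out libraries moved the members more than correcting for Ttr did. With the log2 CPM of Ttr as a covariate, the members' median log2 fold change was 0.34 and 0 were called. Without the library labelled cKO 1 the median was 0.30 with 9 of 9 higher. Without WT 2, WT 3 and cKO 4 it was 0.23 with 8 of 9 higher. That library was the highest of the 12 for 5 members (Col1a2, Fmod, Ogn, Fbln1 and Slc22a6) and among the top 3 for 7, and cKO 4 was the highest for the other cKO maxima, Col1a1, Col6a1 and Dcn. WT 3 was the lowest for 5 members and among the bottom 3 for 8.

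Per kb of transcript, Dcn was the most abundant member. Its mean in WT was 22.9 ± 6.27 CPM per kb, against 10.3 ± 2.71 for Col6a1 and 5.27 ± 1.08 for Fmod (SD, n = 6 each), using the longest annotated coding transcript for each gene. Ogn followed at 4.90 ± 0.96, Fbln1 at 4.50 ± 1.33 and Col1a2 at 3.79 ± 1.21 CPM per kb (SD). The lowest were Col1a1 at 2.09 ± 0.54, Lum at 1.88 ± 0.62 and Slc22a6 at 1.51 ± 0.28 CPM per kb (SD). Of the neighbours in this order, the WT ranges were apart only for Dcn over Col6a1, which held in 12 of 12 libraries, and for Col6a1 over Fmod, which held in 11 of 12. The WT ranges of Col1a2 and Col1a1 overlapped, although Col1a2 was above Col1a1 in each of the 12 libraries.

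Across animals the 9 genes fell into more than 1 pattern. Of the 36 pairs, 34 had a positive Pearson r of log2 CPM and 17 passed an adjusted p of 0.05 (permutation test with 100000 resamples, two-sided, Benjamini-Hochberg over the 36 pairs). Col1a1, Col1a2, Fmod, Ogn, Fbln1 and Slc22a6 went together, a set drawn after the correlations were seen. Their 15 pairs had r from 0.64 to 0.97 with a median of 0.84, and 14 passed. Col6a1 and Dcn correlated with each other but weakly with those 6: the 12 cross pairs had r from -0.05 to 0.48 with a median of 0.17, and 0 passed by Pearson or Spearman. Lum lay between, with r from 0.32 to 0.73 with the 6, of which the pairs with Col1a2 and Fbln1 passed. Without the library labelled cKO 1 the separation was smaller. There r was 0.53 to 0.96 within the 6 and 0.07 to 0.61 for the cross pairs, with medians of 0.82 and 0.30, so the ranges overlapped. They also overlapped without the 2 libraries farthest from the median of the first gene, at 0.49 to 0.94 and -0.22 to 0.56. Inside each genotype the separation was clear in cKO and less so in WT. In cKO, r was 0.56 to 1.00 within the 6 genes, 0.08 to 0.60 for Lum with them and -0.46 to 0.06 for the cross pairs. In WT, r was 0.66 to 0.98 within the 6, 0.63 to 0.90 for Lum with them, in the range of the 6 themselves, and -0.20 to 0.72 for the cross pairs, so that the highest cross pair lay above the lowest pair within the 6. Animals share their library, its dissection and its depth across all genes. In the 9 libraries without WT 2, WT 3 and cKO 4, 4 of the 36 pairs passed, all of them within the 6 genes. There r was 0.48 to 0.99 within the 6 and -0.47 to 0.25 for the cross pairs.

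**Figure D3:**
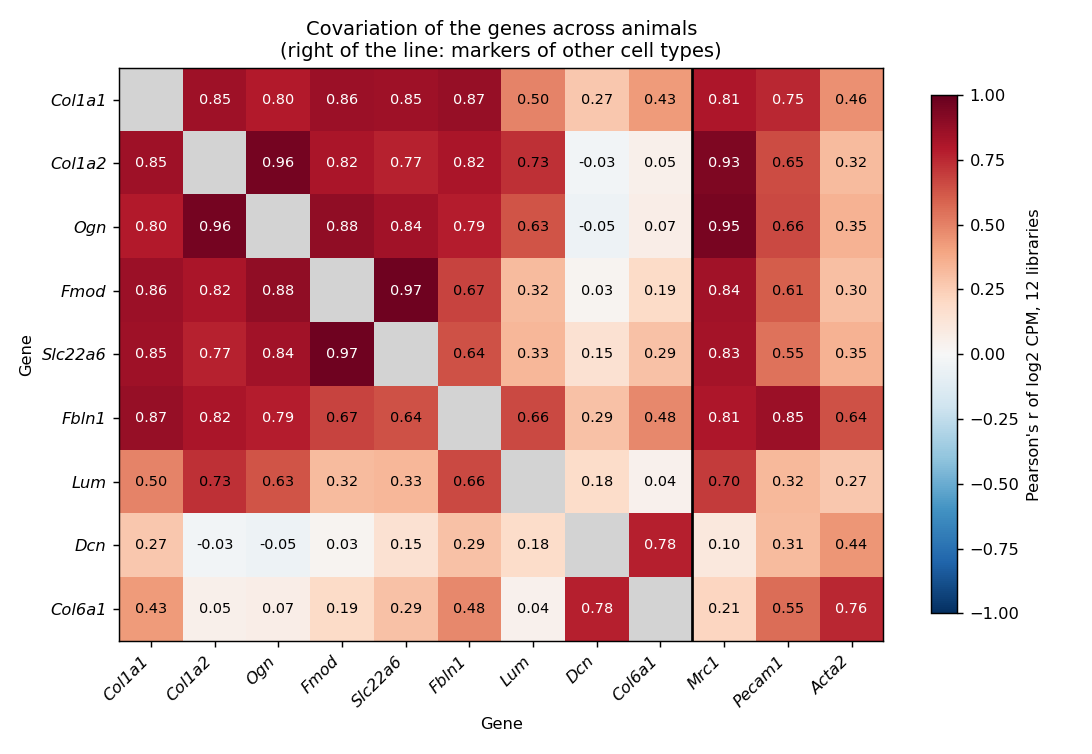
Heat map of the Pearson r of log2 CPM over the 12 libraries for all 36 pairs of the 9 genes, and right of the line with Mrc1, Pecam1 and Acta2, on a colour scale from -1 to 1. Col1a1, Col1a2, Fmod, Ogn, Fbln1 and Slc22a6 form a block with r of at least 0.64, and Col6a1 and Dcn stand apart from it with an r of 0.78 between them.

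Fmod and Slc22a6, a proteoglycan and a transporter, were the most correlated pair. Their Pearson r was 0.97 and their Spearman rho 0.97 (permutation p = 1e-05 for r, the smallest that 100000 resamples can give, adjusted 0.00018). It was 0.90 within WT and 0.98 within cKO, 0.96 without the library labelled cKO 1, 0.99 in the 9 libraries higher in Ttr, and 0.94 without the library labelled cKO 1 and cKO 2, which lie farthest from the median of Fmod. Each ranked 1 for the other among 15544 genes. Col1a2 and Ogn followed, with r of 0.96 and rho of 0.97 (permutation p = 1e-05 for r, adjusted 0.00018). Their r was 0.98 within WT, 1.00 within cKO, 0.96 without the library labelled cKO 1, 0.96 in the 9 libraries higher in Ttr, and 0.93 without WT 3 and the library labelled cKO 1, the farthest from the median of Col1a2.

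The chains of collagen I had r of 0.85 and rho of 0.78 (permutation p = 0.00036 for r, adjusted 0.00216; rho adjusted 0.0227). Their r was 0.85 within WT and 0.81 within cKO, and 0.68 without WT 2 and WT 3, the farthest from the median. In the 9 libraries higher in Ttr it was 0.76 (adjusted permutation p = 0.0735). Col6a1 and Dcn had r of 0.78 and rho of 0.75 (permutation p = 0.00332 for r, adjusted 0.00919; rho adjusted 0.0261). Their r was 0.84 within WT, 0.79 within cKO and 0.65 without WT 1 and cKO 4, the farthest from the median, and it did not pass in the 9 libraries higher in Ttr (r = 0.69, adjusted permutation p = 0.120). Col1a2 and Col6a1, by contrast, had r of 0.05 and rho of -0.15 (adjusted permutation p = 0.928 for r).

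**Figure D4:**
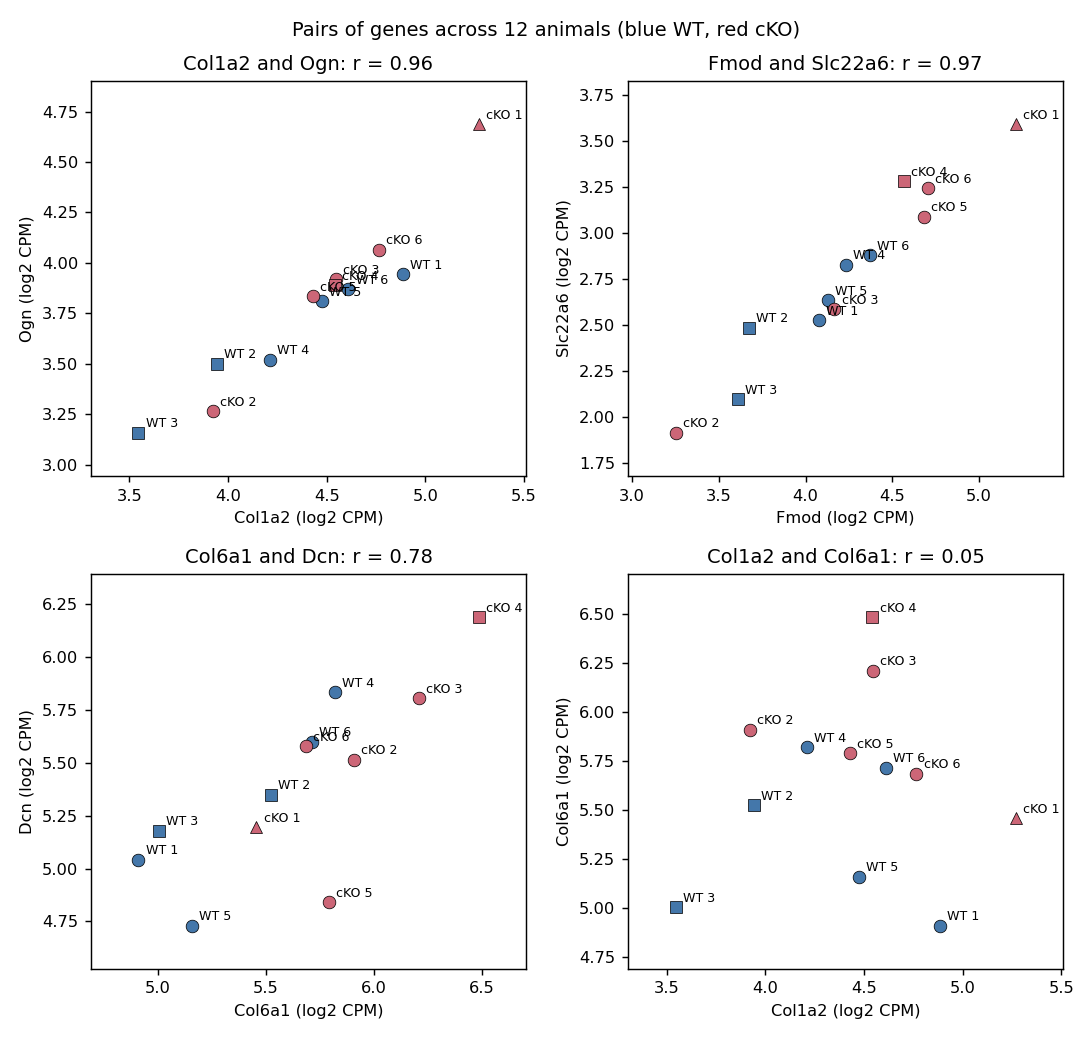
Log2 CPM of pairs of the 9 genes against each other, 1 labelled point per library, WT in blue and cKO in red, for 4 pairs. Squares are the libraries low in Ttr and the triangle is the library labelled cKO 1. Fmod with Slc22a6 (r of 0.97) and Col1a2 with Ogn (r of 0.96) lie along a line through both genotypes, while Col1a2 with Col6a1 (r of 0.05) does not.

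Since these 2 pairs moved together most closely, the promoters of their genes are shown, each from 250 bases before to 50 bases after the RefSeq start (GRCm38.p6, plus strand, 5′ to 3′). Capitals mark matches, at any position and on both strands, to 3 short motifs: the letters of the TATA box as TATAAA, those of the GC box as GGGCGG, and CCAAT.
Fmod, chr1:134037004-134037303: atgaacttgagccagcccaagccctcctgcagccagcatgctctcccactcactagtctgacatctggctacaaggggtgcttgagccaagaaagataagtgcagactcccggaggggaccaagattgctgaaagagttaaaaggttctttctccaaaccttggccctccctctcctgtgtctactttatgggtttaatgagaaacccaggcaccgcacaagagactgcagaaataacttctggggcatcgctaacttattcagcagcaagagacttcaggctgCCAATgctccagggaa
Slc22a6, chr19:8617746-8618045: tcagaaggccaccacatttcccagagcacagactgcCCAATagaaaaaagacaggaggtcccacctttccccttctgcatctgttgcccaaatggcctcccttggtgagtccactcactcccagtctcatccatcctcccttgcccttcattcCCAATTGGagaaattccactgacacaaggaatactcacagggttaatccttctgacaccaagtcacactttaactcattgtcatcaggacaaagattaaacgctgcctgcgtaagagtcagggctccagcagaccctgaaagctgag
Col1a2, chr6:4505368-4505667: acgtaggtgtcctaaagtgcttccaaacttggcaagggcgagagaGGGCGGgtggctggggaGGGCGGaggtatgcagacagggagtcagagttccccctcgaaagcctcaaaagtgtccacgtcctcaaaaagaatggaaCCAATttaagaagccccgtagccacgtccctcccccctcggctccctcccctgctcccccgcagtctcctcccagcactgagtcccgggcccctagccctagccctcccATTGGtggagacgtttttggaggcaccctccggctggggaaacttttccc
Ogn, chr13:49607765-49608064: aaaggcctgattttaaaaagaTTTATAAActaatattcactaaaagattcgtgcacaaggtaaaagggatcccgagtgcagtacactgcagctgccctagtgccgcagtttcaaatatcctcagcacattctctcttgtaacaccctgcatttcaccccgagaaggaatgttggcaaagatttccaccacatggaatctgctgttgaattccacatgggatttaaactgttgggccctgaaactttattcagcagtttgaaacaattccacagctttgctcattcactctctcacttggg
Fmod held 1 CCAAT match, after the start (position 34), and Slc22a6 held 3, of which 2 overlap on opposite strands. Col1a2 held 2 CCAAT and 2 GGGCGG matches, and Ogn held 2 overlapping TATAAA matches, near the 5′ end of the window, and neither of the others. Of 32851 RefSeq promoters of that length, 37.4% held CCAAT, 35.7% GGGCGG and 13.6% TATAAA on either strand, so these letters are common. The windows of Col1a2 and Ogn share none of the 3 motifs.

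Genes of other cell types moved with some members. Mrc1, a mannose receptor of border macrophages, averaged 3.25 ± 0.56 CPM for WT against 3.94 ± 0.95 CPM for cKO (SD, n = 6 each). It was highest in the library labelled cKO 1 (5.71 CPM) and lowest in WT 3 (2.23 CPM). Over 12 animals its r was 0.95 with Ogn and 0.93 with Col1a2 (rho 0.98 and 0.92; permutation p = 2e-05 and 1e-05 for r, adjusted over 36 relations 0.00036 for both). In the 9 libraries higher in Ttr these were 0.94 and 0.90 (adjusted permutation p = 0.0248 for both), and without the 2 libraries farthest from the median of Mrc1 they were 0.87 and 0.86. Mrc1 also passed with Col1a1, Fmod, Fbln1 and Slc22a6, and was at r of 0.21 with Col6a1 and 0.10 with Dcn. Col6a1 was the member that passed with Acta2, the smooth muscle actin: r was 0.76 and rho 0.72 (permutation p = 0.00443 for r, adjusted 0.0194), with 0.31 within WT and 0.87 within cKO, 0.62 without the 2 farthest libraries, and 0.62 in the 9 libraries higher in Ttr (adjusted permutation p = 0.302). Pecam1, an endothelial adhesion molecule, passed with Col1a1 (r of 0.75, adjusted permutation p = 0.0194) and Fbln1 (r and rho of 0.85, adjusted permutation p = 0.0036 for r). Neither passed in the 9 libraries higher in Ttr, where r was 0.45 for Col1a1 and 0.77 for Fbln1 (adjusted permutation p = 0.504 and 0.115). Within WT and cKO, r was 0.93 and 0.37 for Col1a1 and 0.92 and 0.68 for Fbln1. Ttr fell into 3 low and 9 high libraries, so no pooled r is given. Spearman rho over all 12, which the same split affects, was 0.76 with Lum and 0.69 with Col1a2 (adjusted permutation p = 0.0307 and 0.0463) and did not pass with the other 7 members. Within the 9, Pearson r of Ttr with the members ran from -0.28 (Col6a1) to 0.61 (Lum), with a smallest adjusted permutation p of 0.302. The part of these cells in the members' levels was not tested.

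The genes most like Col1a2 and Slc22a6 over the 12 libraries, among 13743 with a mean of at least 1 CPM, included several from the fixed lists of meningeal genes. For Col1a2 they were Serping1 (r of 0.97), Islr (0.96), Cped1 (0.96), Aebp1 (0.95) and Slc6a20a (0.94). Serping1 and Islr were on the list of meningeal and perivascular fibroblast markers, and Slc6a20a on that of arachnoid transporters. For Slc22a6 they were Gjb2 (r of 0.94), Slc13a3 (0.94), Slc6a13 (0.93), Sphk1 (0.92) and Vstm4 (0.91). Gjb2, a connexin of the leptomeninges, was on the first list, and Slc6a13, a GABA and taurine transporter, on the second.

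In the wider lists of matrix and meningeal genes most fitted levels were also higher in cKO, by less, and edgeR called 0 of their genes. Over all 17 lists, 39 genes had an unadjusted edgeR p under 0.05. Of these, 12 were among the 17 smooth muscle and pericyte markers tested, with 12 higher and 0 lower in cKO. Across all genes tested the share at that level was 9.54%, with 618 genes higher and 1225 lower. DESeq2 called 9 genes of the 17 lists, all of them smooth muscle and pericyte markers, against 76 of all 19325 genes tested. With limma-voom 0 were called. The list of meningeal and perivascular fibroblast markers had 52 of 53 genes tested, with a summed level of 1667 to 2526 CPM in WT and 1876 to 2978 CPM in cKO. Of the 52, 46 had a higher and 6 a lower fitted level in cKO, with a median log2 fold change of 0.27, and 9 were higher and 1 lower at an unadjusted p under 0.05. Tbx18, a transcription factor of mural cells and fibroblasts, averaged 2.78 ± 0.45 CPM for WT against 3.61 ± 0.57 CPM for cKO (SD, n = 6 each; log2 fold change 0.38 ± 0.13, SE, edgeR adjusted p = 0.395). Lama1, a laminin chain of the pial basement membrane, had a log2 fold change of 0.30 ± 0.11 (SE, edgeR adjusted p = 0.407). Of the 18 arachnoid transporters and barrier genes, 15 were higher, with a median of 0.13, and Slc6a20a was at 0.34 ± 0.17 (SE, edgeR adjusted p = 0.575).

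Other lists held partners of the members in the matrix. Of the 9 other small leucine-rich proteoglycans that were tested (of 12), 8 were higher with a median of 0.30. Bgn (biglycan), the closest relative of Dcn, averaged 23.2 ± 4.59 CPM for WT against 29.6 ± 3.30 CPM for cKO (SD, n = 6 each; log2 fold change 0.35 ± 0.12, SE, edgeR adjusted p = 0.388). Of the 5 other collagen VI chains, 4 were higher with a median of 0.28. Col6a2, whose product joins that of Col6a1 in the microfilament, averaged 15.9 ± 2.26 CPM for WT against 19.3 ± 4.95 CPM for cKO (SD, n = 6 each; log2 fold change 0.28 ± 0.15, SE, edgeR adjusted p = 0.575). Among 25 fibulin, elastic fibre and other glycoprotein genes, 19 were higher with a median of 0.13, with Eln (elastin) at 0.36 ± 0.12 (SE, edgeR adjusted p = 0.372) and Fbn2 (fibrillin 2) at -0.27 ± 0.10 (SE, edgeR adjusted p = 0.442).

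Genes that build and remodel collagen had smaller medians. Of 9 other fibrillar collagens and partners, 6 were higher with a median of 0.09: Col3a1, which forms fibrils with collagen I, was at 0.37 ± 0.25 (SE, edgeR adjusted p = 0.678) and Col12a1 at -0.23 ± 0.09 (SE, edgeR adjusted p = 0.440). Of 23 enzymes that modify and cross-link collagen, 19 were higher with a median of 0.10, led by the prolyl hydroxylase subunit P4ha2 at 0.21 ± 0.09 (SE, edgeR adjusted p = 0.473). The medians were 0.10 for 14 TGF-beta signalling genes (9 higher) and 0.08 for 17 matrix-degrading enzymes and inhibitors (12 higher).

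Markers of other cells in the dissection had medians from -0.03 to 0.59. The 17 smooth muscle and pericyte markers had a median log2 fold change of 0.59 with 16 higher, a summed level of 240 to 281 CPM in WT and 300 to 371 CPM in cKO, and 7 genes with every cKO library above every WT library. Acta2 averaged 17.9 ± 4.66 CPM for WT against 34.98 ± 6.44 CPM for cKO (SD, n = 6 each; log2 fold change 0.97 ± 0.16, SE, edgeR adjusted p = 0.126). DESeq2 called 9 of these 17 genes and no gene of the other lists. The 15 endothelial markers had a median of 0.09 (14 higher; 411 to 508 CPM summed in WT, 449 to 491 in cKO) and the 8 border macrophage markers one of 0.25 (8 higher; 24.1 to 35.7 and 28.9 to 38.1 CPM). The 15 choroid plexus markers had a median of 0.30 with 15 higher and summed levels that overlapped widely, from 230 to 11628 CPM in WT and from 164 to 7930 CPM in cKO. The 10 ependymal markers had a median of 0.32 (10 higher), the 7 tested blood markers one of 0.06 (7 higher), the 6 astrocyte markers one of -0.003 (3 higher) and the 10 hippocampal neuron markers one of -0.03 (3 higher, 7 lower). The 9 members summed to 127 to 215 CPM in WT and 178 to 277 CPM in cKO. The part of vessel or other cells in the members' difference was not tested.

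**Figure D5:**
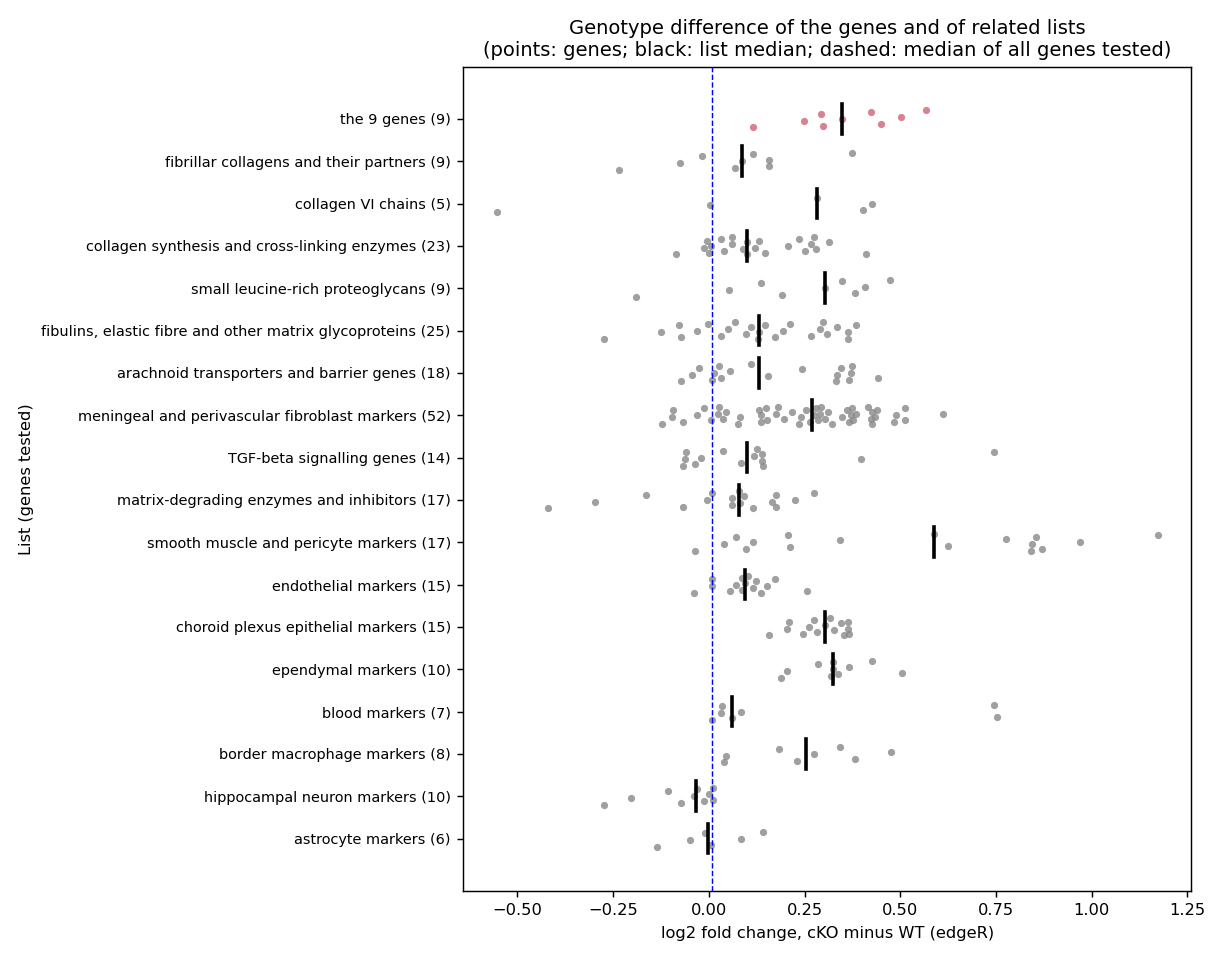
Log2 fold change (cKO minus WT) of every tested gene in the 9 members and in the 17 other lists, 1 row per list, with the list's median as a black bar and the median of all genes tested as a dashed line. The members' median of 0.35 lies below that of the smooth muscle and pericyte markers (0.59). The next medians below it are those of the ependymal markers (0.32), small leucine-rich proteoglycans (0.30), choroid plexus markers (0.30), collagen VI chains (0.28) and fibroblast markers (0.27). No point of the members was called.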

How the data were processed

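PolyA RNA of bulk hippocampus from 12 male mice was sequenced. The authors deposited estimated (expected) counts per gene symbol, 1 column per animal, unscaled. Quantification was by Salmon 1.3.0 with GRCm38, per the submitters' processing notes; the sources used here name neither the annotation nor the strand setting, so reads of genes overlapping on opposite strands cannot be told apart. Between 24.8% and 25.9% of the values per library were not whole, and the deposited expected counts were rounded.

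Genotypes, taken from the labels, were compared over all 19325 genes with a count minimum of 10 (total 15) by filterByExpr, using edgeR 4.0.16 (quasi-likelihood test, TMM, genotype alone) in R 4.3.3, with Benjamini-Hochberg adjustment over all genes and a threshold of 0.05. Log2 CPM used a prior count of 2. Correlations used permutation tests with 100000 resamples, and exact ones within a genotype and over the 9 libraries without WT 2, WT 3 and cKO 4. Alternatives were other scalings and filters, DESeq2 1.42.0, limma-voom (limma 3.58.1), each animal left out, the animal number as a block, Ttr as a covariate, and the 9 libraries without WT 2, WT 3 and cKO 4.

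The members, the 17 other gene lists and these tests were chosen with earlier results of these data known. In the lists, 2 symbols were matched by another name, Leprel1 as P3h2 and Ccn2 as Ctgf. Named genes were the 9 members, up to 4 of each list with the smallest p, Ttr, Acta2, Pecam1, Mrc1 and Emx1, and the 5 genes outside the members most correlated with Col1a2 and with Slc22a6. Mirg and the genes under Other observations were chosen after their values were seen. 1 gene that this rule names is not reported here.

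In data simulated for 6 cKO against 6 WT over 19117 genes, edgeR recovered 94% of genes changed by 1 in either direction on the log2 scale, 72% of genes higher by 0.5 and 84% of genes lower by 0.5. Counts were drawn for each gene on its own, without variation shared between genes such as that of dissection. Each size and direction had 50 changed genes. These shares check the fit and do not give the chance of calling a member in the real libraries. Replicate libraries all differed beyond counting noise (chi-square per degree of freedom at least 8.51). The labels number the animals, and p-values measure the spread between these libraries.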

Additional observations from a re-analysis of the deposited data

Results flagged for a closer look

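Emx1 in cKO was flagged because 1 library stood far from the other 5 of its group: the library labelled cKO 1 held 9.14 CPM, and the others held 5.91 to 6.84 CPM. It was the 1 group flagged of 28 groups of 6 libraries examined (the members, Ttr, Acta2, Pecam1, Mrc1 and Emx1 in each genotype), and chance flags about 1 in 20 groups. The same library held the highest level of 5 of the 9 members. Whether its genotype label is right was not tested.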

How the results depend on the processing

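No member was called in any of the 23 fits tried, and the smallest adjusted p of a member ranged from 0.161 (edgeR, without the library labelled cKO 1) to 0.716 (edgeR, without WT 5). The members' median log2 fold change stayed between 0.23 and 0.45. Each member kept its direction except Lum, which was at -0.0321 without WT 3 and at -0.000832 without WT 2, WT 3 and cKO 4; the cause was not tested. The number of genes called, 2 in the main test, was 76 with DESeq2 (24 higher, 52 lower), 0 with limma-voom (1847 at an unadjusted p under 0.05), 1 with no filter beyond a count above 0, 1 with at least 1 CPM in 6 libraries, 4 with Ttr as a covariate, 0 without WT 2, WT 3 and cKO 4, and 0 to 6 with 1 animal left out, the 6 without the library labelled cKO 1. List members called, 0 in the main test (39 at an unadjusted p under 0.05), were 9 with DESeq2 and 1 with Ttr as a covariate (Myl9, edgeR adjusted p = 0.0467), all of them smooth muscle and pericyte markers. Of 36 pairs of members, 17 passed, against 4 without WT 2, WT 3 and cKO 4, 16 with the genotype means removed and 14 to 18 with 1 animal left out. Of 36 relations with marker genes, 9 passed, against 2 without those 3 libraries and 5 (without WT 3) to 13 (without cKO 3) with 1 animal left out. Fewer libraries enter each of these settings, except the one with the genotype means removed, which used all 12. The difference in the log2 ratio of Col1a1 to Col1a2, 0.02, ran from -0.0686 (without WT 1) to 0.11 (without the library labelled cKO 1), and that of Slc22a6 to Col1a2, 0.07, from -0.0565 (without WT 1) to 0.15 (without cKO 2). With the animal number as a replicate block, 0 genes were called (1724 at an unadjusted p under 0.05), 7 members had an unadjusted p under 0.05 and the smallest adjusted p of a member was 0.483. The labels do not say whether the numbers pair the animals. The deviations of same-numbered animals correlated at 0.12, 0.03, -0.27, -0.11, 0.08 and 0.25. Low values like these cannot settle it, since differences in dissection also enter them. Depth limits Lum and Slc22a6 most, with as few as 102 and 168 counts in a library.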

Other observations

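Col6a1 and Dcn, which stood apart from the other members with all 12 libraries, had other genes as their closest matches. These were looked up after the correlations had been seen, over 12 libraries and 13743 genes with a mean of at least 1 CPM, and are given as descriptions. For Col6a1 they were Lypd1 (Pearson r of 0.955), Esyt3 (0.94), Bace2 (0.92), Magel2 (0.92) and Reep6 (0.91). For Dcn they were Htr3a (0.94), Nr2f2 (0.93), Wdr6 (0.92), Icosl (0.91) and Adamts14 (0.91). Htr3a encodes a serotonin receptor channel and Nr2f2 a nuclear receptor. Which cells the RNA of these matches came from was not tested. None of these 10 genes was on a list of fibroblast, vessel or other cell markers used here. Among 15544 genes, Dcn ranked 98 and Col1a2 ranked 6824 by likeness to Col6a1.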
